A study of Mus musculus with 8 samples.

Results

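AP-1 is the dimeric transcription factor that FOS and JUN proteins form. Several of its genes belong to the immediate early genes, which are transcribed within minutes of a growth factor or stress signal without new protein synthesis. The genes described here are 10 AP-1 and early response genes chosen by symbol, namely the FOS genes Fos, Fosb, Fosl1 and Fosl2, the JUN genes Jun, Junb and Jund, the zinc finger gene Egr1, and the early response genes Ier2 and Ier3. All 10 were found among the 45777 genes of the deposited table, and all 10 passed the filter on low counts, as did 14945 genes in all. RNA was sequenced from colonic organoids, epithelial cultures that grow in Matrigel, taken from the crypts of 9-week-old male mice. KO organoids (4 libraries, replicates 5 to 8) came from Reg3aΔIEC mice, in which loxP sites flank exons 2 to 4 of Reg3a and Villin-Cre removes them in intestinal epithelium. WT organoids (4 libraries, replicates 13 to 16) came from Reg3afl/fl mice, so both genotypes carry the floxed allele; the promoter of Cre is active across intestinal epithelium. Both were collected 3 days after passage, at passage 15 or earlier, with no added treatment, and the comparison asks how the genotypes differ. Reg3a itself, an antimicrobial lectin gene, had 0 counts in all 8 libraries (up to 3 counts, or 0.0606 to 0.0809 CPM, are allowed by a count of 0), so its level cannot check the genotype labels. The labels state 1 mouse per genotype plated in 4 wells, and elsewhere 3 mice per genotype. The p-values here therefore measure the spread between libraries, which may be technical, and under the first statement genotype cannot be told apart from mouse or organoid line.

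FOS proteins bind DNA as partners, chiefly of JUN proteins, whereas JUN proteins can also pair among themselves. Mitogen-activated protein kinases drive the family, through serum response factor and its ternary complex partners on the Fos and Egr1 genes and through phosphorylation of JUN itself. The transcripts are short-lived, and in dissociated tissue they are also known to rise with handling.

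The promoters of 4 members are shown because these genes were either called different between the genotypes (Jun, Fosb and Ier3) or give the family its name (Fos). RefSeq promoter windows on GRCm38.p6, from 250 bases before to 50 bases after the annotated start, were found for 7 of the 10 members. In each window, read 5′ to 3′ on the strand of the gene, capitals mark matches to 5 motifs. These are the AP-1 site type known from the Jun promoter, TGACATCA; the core of a cAMP response element, TGACG; the TATA box, TATAAA; the EGR site, GCGNGGGCG; and a loose form of the NF-kB site, GGNNNTTCC.
Fos, chr12:85473640-85473939, plus strand: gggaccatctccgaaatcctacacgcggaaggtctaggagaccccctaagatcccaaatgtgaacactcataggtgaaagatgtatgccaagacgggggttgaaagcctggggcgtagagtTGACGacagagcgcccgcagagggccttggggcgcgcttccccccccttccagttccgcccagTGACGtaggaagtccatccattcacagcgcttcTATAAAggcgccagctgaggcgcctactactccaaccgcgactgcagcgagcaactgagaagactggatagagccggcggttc
Fosb, chr7:19309996-19310295, minus strand: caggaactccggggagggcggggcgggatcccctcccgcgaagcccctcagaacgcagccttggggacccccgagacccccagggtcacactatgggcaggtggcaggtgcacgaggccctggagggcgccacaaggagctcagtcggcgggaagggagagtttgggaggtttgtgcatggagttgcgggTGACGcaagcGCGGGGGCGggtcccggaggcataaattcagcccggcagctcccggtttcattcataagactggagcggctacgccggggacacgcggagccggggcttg
Jun, chr4:95052173-95052472, minus strand: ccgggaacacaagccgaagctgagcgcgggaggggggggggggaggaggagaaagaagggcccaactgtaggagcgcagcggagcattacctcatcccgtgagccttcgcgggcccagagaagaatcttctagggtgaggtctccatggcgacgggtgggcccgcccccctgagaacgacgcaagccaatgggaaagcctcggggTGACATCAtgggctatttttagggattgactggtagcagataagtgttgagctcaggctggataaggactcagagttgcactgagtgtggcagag
Ier3, chr17:35821463-35821762, plus strand: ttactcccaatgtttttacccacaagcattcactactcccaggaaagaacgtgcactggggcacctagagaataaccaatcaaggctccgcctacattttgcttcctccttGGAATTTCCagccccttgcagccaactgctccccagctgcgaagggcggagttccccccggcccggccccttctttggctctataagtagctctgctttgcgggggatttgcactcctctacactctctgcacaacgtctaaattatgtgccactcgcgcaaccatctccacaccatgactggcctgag
Motifs were searched on both strands in 27025 promoters, 11074 of them of tested genes, and positions are counted from the annotated start, with the base before it at -1. TGACATCA lay at -45 in Jun, in no other member window, and in 3.76% of all promoters (1.58% of those of tested genes). TGACG, which is also contained in the full cAMP response element TGACGTCA, lay at -129 and -66 in Fos, at -60 in Fosb and at -106 in Junb, and in 21.02% of all promoters (31.0% of those of tested genes). The TATA box was found at -33 in Fos and at 1 in Junb, and in 14.2% of all promoters (7.87% of those of tested genes). The EGR site lay at -50 in Fosb and -79 in Fosl2 (5.55% of all promoters, 10.1% of those of tested genes), and the loose NF-kB form at -139 in Ier3 alone (18.4% and 21.8%). The consensus AP-1 site TGANTCA, the full cAMP response element and the CArG box, the site of serum response factor, were in none of the 7 windows, against 7.93%, 1.88% and 1.57% of all promoters and 5.43%, 3.14% and 1.26% of those of tested genes. No window was found for Fosl1, Egr1 and Ier2. Sites of those genes, and sites outside the windows of the others, were therefore not searched. All hits are letter matches, and occupancy was not measured. The TATA match of Junb lies on the annotated start itself. Annotated starts were not checked in these organoids, so windows and positions rest on the annotation.

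Compared per transcript length, the members ranged from 0.220 to 135 in mean WT level. FPKM is the authors' count per transcript length and depth. For WT, Ier3, a stress and survival gene known as an NF-kB target, stood highest at 135 ± 5.20 FPKM (SD, n = 4). Junb (98.1 ± 3.09), which can oppose Jun, and Jund (97.4 ± 8.88), the more constitutive JUN gene, followed, and their libraries overlapped. Fosl2, which encodes FRA2, stood at 28.7 ± 0.296 FPKM. Ier2 (25.4 ± 1.72) and Jun (25.3 ± 0.657) came next and overlapped each other. Fos stood at 18.9 ± 1.21 and Egr1 at 9.46 ± 0.278 FPKM. Fosl1, which encodes FRA1, stood at 0.973 ± 0.222 and Fosb at 0.220 ± 0.0417 FPKM, so these 2 were expressed far below the other FOS genes. All other neighbours in this order were apart in WT, and the order of the 10 means was the same in KO. Fosl1 overlaps Ccdc85b (554 to 775 counts) in the annotation, and the sources do not say if counting used strand, so its counts are uncertain.

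**Figure D1:**
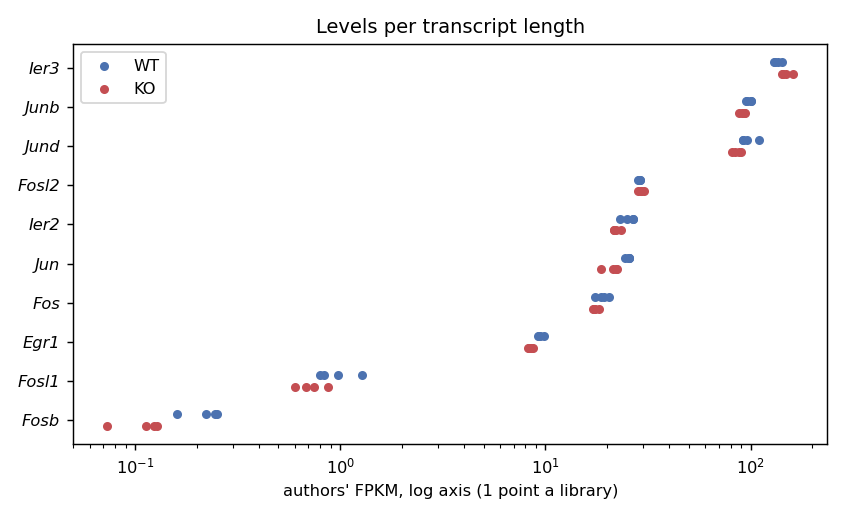
Authors' FPKM of the 10 genes (x axis, log scale), with 1 point per library in blue for WT and red for KO. Genes are ordered by their WT mean, from Fosb at 0.220 to Ier3 at 135 FPKM.

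Against this order of levels, differences between the genotypes were small. Of the 10 members 3 fell in KO (Jun, Fosb and Egr1) and 1 rose (Ier3), by the edgeR quasi-likelihood test with a Benjamini-Hochberg adjusted p under 0.05 over all genes tested. Among all tested genes 8.26% were lower and 7.63% higher by the same rule. Those 4 members were also the 4 in which the libraries of the genotypes did not overlap in CPM. That held for 10.3% of all tested genes in the lower and 9.89% in the higher direction. On the authors' FPKM Junb (at most 93.9 in KO, at least 94.9 in WT) and Jund (89.6 and 91.5) did not overlap either. The share of all genes on that scale was not computed. The median log2 fold change (KO minus WT) was -0.17 over the 10 members and -0.0012 over all tested genes, with 8 members below 0. CPM, library-scaled counts (TMM), is used for comparisons between libraries.

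Jun, the founding JUN gene and a target of JNK signalling, lies on chromosome 4 at 95049036 to 95052222 (GRCm38). It stood at 78.6, 83.2, 68.2 and 81.7 CPM in KO replicates 5 to 8 and at 89.5, 94.8, 92.0 and 96.6 CPM in WT replicates 13 to 16. Every KO library lay below every WT library, and KO replicate 7 was the lowest. The means were 77.9 ± 6.77 (KO) and 93.2 ± 3.13 CPM (WT; SD, n = 4). Jun fell by 0.26 ± 0.059 on the log2 scale (SE, edgeR adjusted p = 0.00923), or fell by 16.4%. Jun was below the threshold in each of the 17 other settings tried, including every fit that left out 1 library (edgeR adjusted p between 0.00915 and 0.0290 there).

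Fosb, on chromosome 7 at 19302696 to 19310118, encodes a FOS protein and, by splicing, a shorter stable form, which gene counts cannot separate. It had 14 to 27 counts in the KO libraries and 27 to 54 in the WT libraries. Its levels were 0.331, 0.557, 0.506 and 0.559 CPM in KO replicates 5 to 8 and 1.103, 1.09, 0.957 and 0.728 CPM in WT replicates 13 to 16. The genotypes did not overlap, and KO replicate 5 and WT replicate 16 were the lowest of their genotype. Fosb fell by 0.99 ± 0.25 on the log2 scale (SE, edgeR adjusted p = 0.0149), the widest difference among the members, with a 95% interval from -1.51 to -0.46. Without WT replicate 13 the edgeR adjusted p was 0.0534 and the log2 fold change -0.92.

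Egr1, which encodes a zinc finger activator that ERK signalling induces through serum response factor, stood at 29.2, 31.6, 29.3 and 30.1 CPM in KO replicates 5 to 8. In WT replicates 13 to 16 it stood at 32.7, 35.2, 32.3 and 34.1 CPM. The highest KO library and the lowest WT library nearly met. Egr1 fell by 0.16 ± 0.050 on the log2 scale (SE, edgeR adjusted p = 0.0455), close to the threshold. Leaving out any 1 library except KO replicate 6 or WT replicate 15 ended the call, with an edgeR adjusted p of up to 0.131. It also ended with upper quartile scaling (0.0614), library totals alone (0.0524), no filter on low counts (0.0764) and limma-voom (0.0501).

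Ier3, on chromosome 17 at 35821713 to 35822911, was the member that rose. It stood at 180, 185, 186 and 201 CPM in KO replicates 5 to 8 and at 164, 173, 174 and 170 CPM in WT replicates 13 to 16. Every KO library lay above every WT library, and KO replicate 8 was the highest. Ier3 rose by 0.15 ± 0.043 on the log2 scale (SE, edgeR adjusted p = 0.0368), which is 10.6% higher. The call held in 3 of the 8 fits that left out 1 library and was lost when KO replicates 6, 7, 8 or WT replicates 13, 16 were each left out (edgeR adjusted p between 0.0585 and 0.141).

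**Figure D2:**
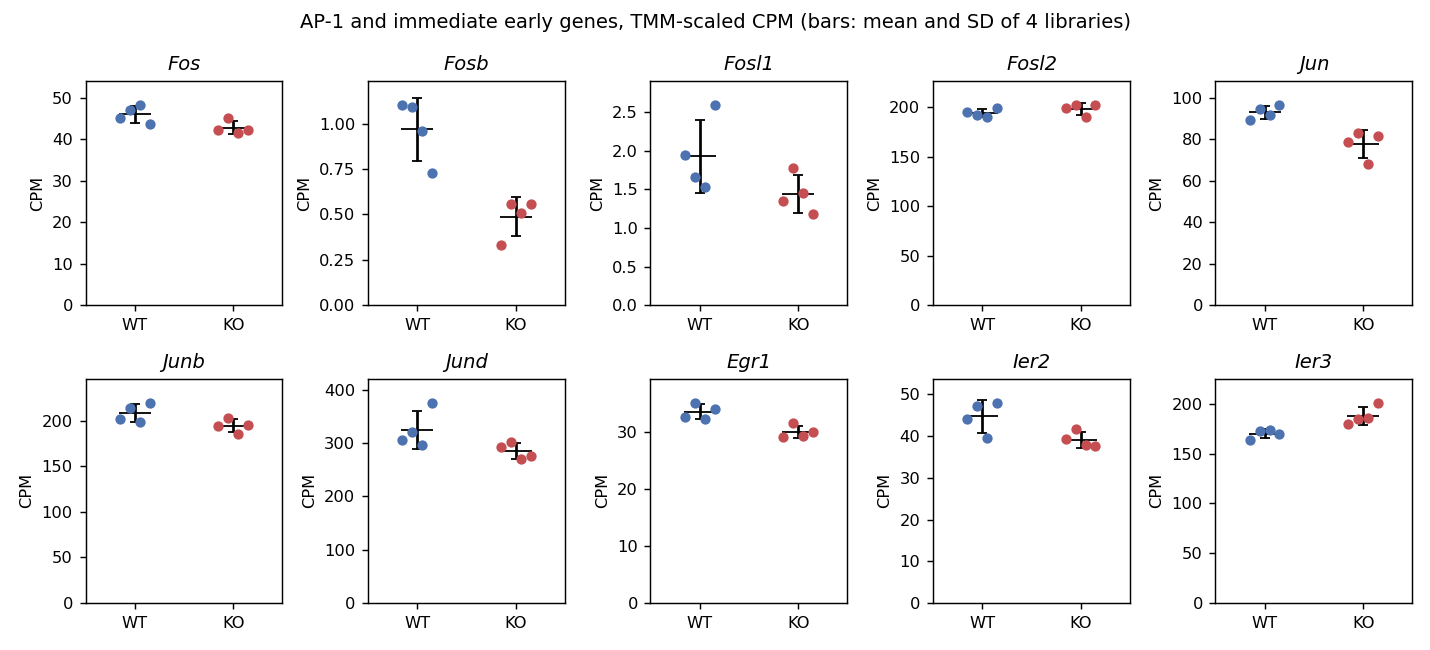
TMM-scaled CPM of each gene (y axis, from 0) in the 4 WT (blue) and 4 KO (red) libraries, with the mean and SD in black. Points of the genotypes are apart for Fosb, Jun, Egr1 and Ier3 and overlap for the other 6 genes.

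For the other 6 members no call was made, and their 95% intervals, not adjusted for the number of genes, lay below 0 for Jund, Ier2, Fos and Junb. Jund ranged over 269 to 303 (KO) and 296 to 376 CPM (WT), with the highest value in WT replicate 16 and a log2 fold change of -0.18 (95% interval -0.33 to -0.041, edgeR adjusted p = 0.0804). Ier2, which encodes a small nuclear protein, ranged over 37.7 to 41.8 (KO) and 39.5 to 48.0 CPM (WT), a log2 fold change of -0.19 (-0.33 to -0.054, edgeR adjusted p = 0.0582). Both passed the threshold with DESeq2 (adjusted p = 0.0495 for Jund and 0.0367 for Ier2). They also passed without WT replicate 15 (edgeR adjusted p = 0.0288 and 0.00638), and Ier2 without KO replicate 6 (0.0491). Without WT replicate 16 the log2 fold change of Jund was -0.11 (edgeR adjusted p = 0.182).

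Fos ranged over 41.6 to 45.2 (KO) and 43.7 to 48.3 CPM (WT), a log2 fold change of -0.11 (95% interval -0.21 to -8.7e-05, edgeR adjusted p = 0.174). Junb ranged over 185 to 203 (KO) and 199 to 220 CPM (WT) (-0.10, 95% interval -0.20 to -0.0036, edgeR adjusted p = 0.159; -0.055 after the GC and length smooth). Fosl1 ranged over 1.18 to 1.77 (KO) and 1.53 to 2.59 CPM (WT) (-0.41, 95% interval -0.83 to 0.013, edgeR adjusted p = 0.190), and -0.24 without WT replicate 16. These 3 were lower in mean, with libraries that overlapped in CPM. Fosl2 was the most alike between genotypes, with 198 ± 5.91 (KO) and 194 ± 3.81 CPM (WT). The fitted difference was 0.031 on the log2 scale with a 95% interval from -0.051 to 0.11 (edgeR adjusted p = 0.657).

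**Figure D3:**
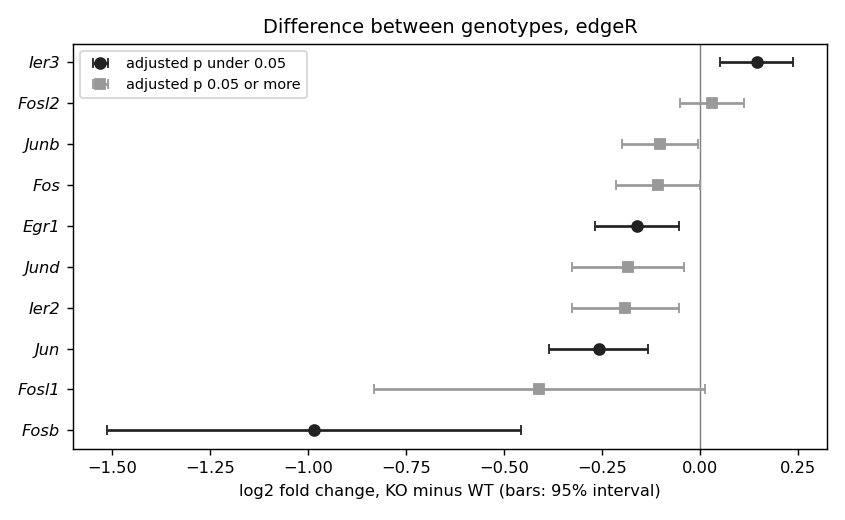
Fitted log2 fold change (x axis, KO minus WT) of each gene with its 95% interval, not adjusted for the number of genes; black circles passed an adjusted p of 0.05 and grey squares did not. Fosb has the widest interval, from -1.51 to -0.46, and Ier3 is the called gene above 0.

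The libraries of 1 genotype moved partly together. The log2 CPM of each member was taken relative to its mean over 8 libraries and averaged over the 10 members. This level was -0.17, -0.0071, -0.15 and -0.10 in KO replicates 5 to 8 and 0.10, 0.13, 0.041 and 0.16 in WT replicates 13 to 16. All 4 KO libraries thus lay below all 4 WT libraries, and KO replicate 6 came nearest to WT. Fosb, at 14 to 54 counts, had the widest deviations, from -0.95 in KO replicate 5 to 0.66 in WT replicate 13. It stood at -0.27 in KO replicate 6 and 0.47 in WT replicate 15, and the order of those libraries rests on Fosb. On log2(FPKM + 1), which shrinks low genes, the level was -0.098 to -0.011 in KO and 0.032 to 0.087 in WT. Since fold changes of the members enter it, this level adds no test to those above.

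Libraries of the same genotype also differed across several members at once. KO replicate 6 was above the KO mean for 9 of 10 members and the highest KO library for 8. KO replicate 7 was below it for 8 members and the lowest for 5. Among WT libraries, replicate 15 was below the WT mean for 8 members, while replicates 14 and 16 were each above it for 7. With each genotype's mean removed, the Pearson correlation between members over the 8 libraries had a median of 0.32 over the 45 pairs, of which 31 were above 0, and a mean of 0.28. The mean over all pairs of tested genes was 0.00053. Scaling holds the average deviation of all genes near 0 (-0.0059 to 0.0073 per library), so that mean lies near 0 whatever the members do. It does not show how other small sets of genes vary together. All pairs share the libraries and their depth, so these values describe this set of libraries.

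The pairs differed widely, and several depended on the scaling. Junb varied with Jund (r = 0.86), Ier2 (r = 0.86) and Egr1 (r = 0.84), and Jun with Fosl2 (r = 0.85). With GC content and length smoothed in each library, an alternative chosen after seeing the data, Fosl2 with Jun stayed at 0.81, while the Junb pairs were 0.33 with Jund, -0.30 with Ier2 and 0.22 with Egr1. Egr1 had the highest correlation with the mean of the other members (r = 0.87), ahead of Junb (0.78) and Ier2 (0.71). The values were 0.060 for Fos, -0.045 for Ier3 and -0.20 for Fosb, and the lowest pair was Fosb with Jund (r = -0.54). Fosb and Fosl1, the members with the fewest counts, varied most within genotype and so weigh most on such means. Correlations with the mean of the other members were not computed after the smooth. The smooth changed which members varied together, since Fos with Junb then reached 0.76, Fos with Egr1 0.66, Fosb with Egr1 0.67 and Junb with Ier3 0.58. On log2 CPM without it Fos, the classical partner of Jun, was lowest of the WT libraries in replicate 16, where Jun, Junb and Jund were highest.

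**Figure D4:**
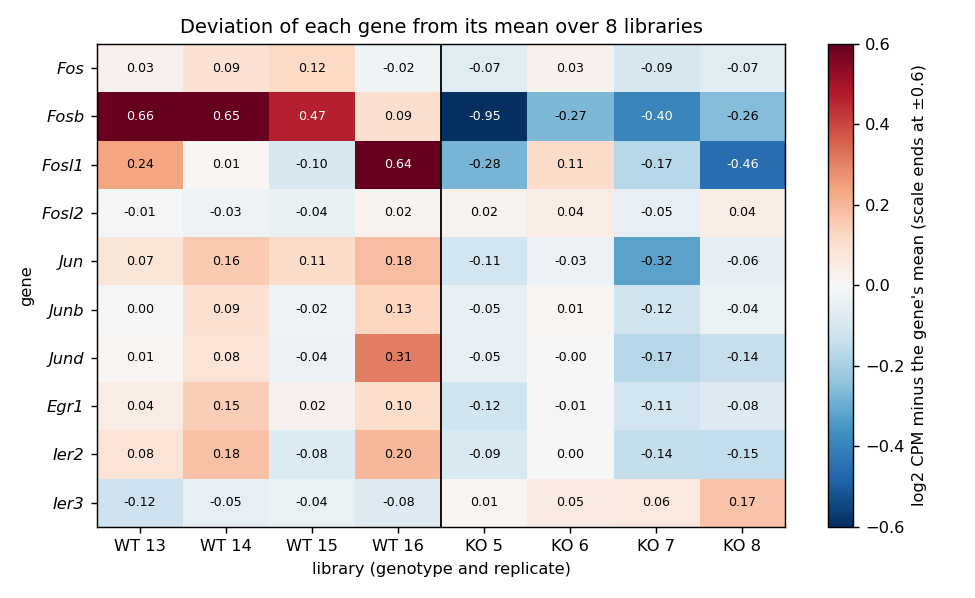
Log2 CPM of each gene (rows) in each library (columns) minus the gene's mean over the 8 libraries, red above and blue below; the colour scale ends at ±0.6. Rows of Jun, Egr1 and Fosb are above 0 in all 4 WT libraries and below 0 in all 4 KO libraries, and Ier3 has the opposite signs.

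Base composition moved with these differences between libraries. The members are GC-rich, with a median of 56.6% GC in their longest protein-coding transcript against 50.3% for the 12379 tested genes with one in GENCODE M21, and reach 67.1% in Jund. Across those genes, the deviation of a library from its genotype's mean changed with GC content by -0.12 log2 units per 10 GC points in WT replicate 15, 0.061 in WT replicate 14 and 0.095 in WT replicate 16. In the KO libraries this slope lay between -0.016 and 0.022. After the GC and length smooth the median correlation over the 45 pairs was 0.22 and the mean 0.15. WT replicate 15 was then below the WT mean for 3 members instead of 8. WT replicate 16, the highest WT library for 6 members before, was then the lowest for 6 and below the WT mean for 6. Meanwhile KO replicate 6 stayed above the KO mean for 9 and KO replicate 7 below it for 8. The member level, with Fosb included, still separated the genotypes, at -0.16 to -0.016 in KO and 0.075 to 0.12 in WT.

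With that smooth, 5 members fell and 1 rose, beside 13.5% lower and 14% higher of the 12379 genes tested there. In those genes without the smooth 4 members fell and 1 rose, beside 10.1% lower and 9.16% higher. Jun (log2 fold change -0.25, edgeR adjusted p = 0.000774), Fosb (-0.98, 0.0102) and Egr1 (-0.16, 0.0124) were called as before. Jund (-0.12, edgeR adjusted p = 0.0121) and Ier2 (-0.14, 0.0163) were called too, each with a smaller fold change and a smaller SE (0.034 and 0.040) than in all genes without the smooth (0.067 and 0.064). Ier2 already passed in those 12379 genes without it (edgeR adjusted p = 0.0467), and Jund did not (0.0630). Ier3 had a log2 fold change of 0.19 (edgeR adjusted p = 0.00239).

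**Figure D5:**
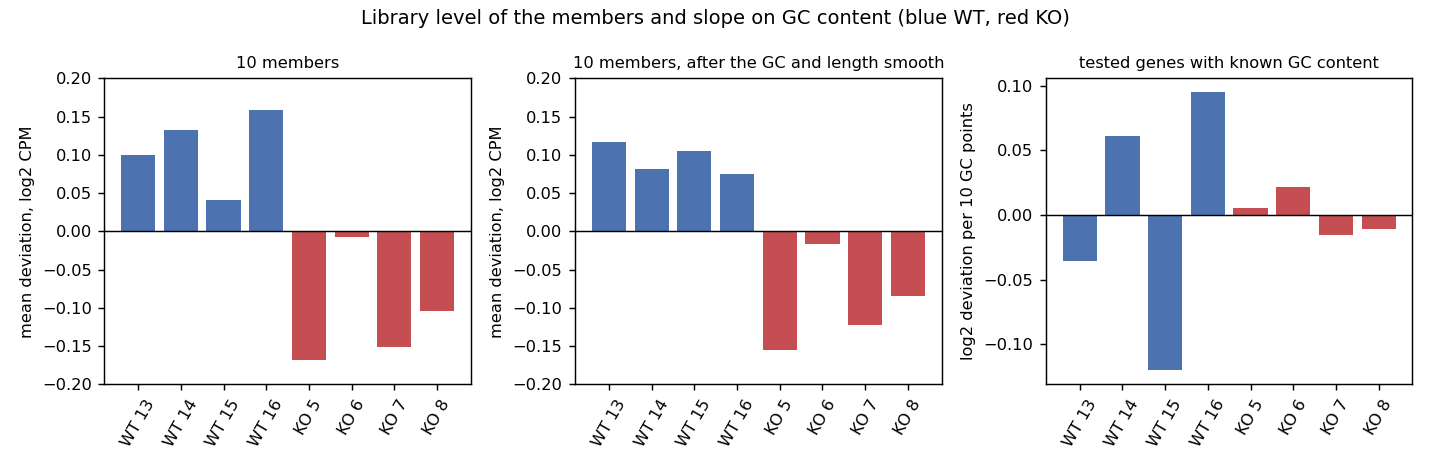
Mean deviation of the 10 genes per library in log2 CPM (left), the same smoothed for GC and length (middle), and the slope of all tested genes with known GC content, in log2 units per 10 GC points (right); WT blue, KO red. The slope is lowest in WT replicate 15 (-0.12) and highest in WT replicate 16 (0.095), and KO bars lie below WT bars in both panels of the member level.

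The members also share gene structure. Jun, Junb, Jund and Ier2 have 1 exon in that transcript, as have 2.42% of the tested genes. Egr1 and Ier3 have 2 and the 4 FOS genes 4 each, against a median of 9 over tested genes. The pentamer ATTTA, the core of the AU-rich elements that speed mRNA decay, occurred in the 3′ untranslated region of 9 of the 10, with Ier2 as the exception, and in 68.9% of tested genes. Fos held 4 copies, Jun 4, Ier3 5 and Fosl2 8. Per kb of that region these were 4.91, 3.24, 8.16 and 1.72, against a median of 1.28 over tested genes. Fosb (0.466) and Ier2 (0) lay below that median.

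Among other basic leucine zipper genes whose products pair with FOS or JUN, 3 of 11 tested fell and 1 rose. Of all tested genes 8.26% were lower and 7.63% higher. This list and those below were chosen with earlier results of these data known. Atf3, a stress-induced partner of JUN, had 33.5 ± 3.22 (KO) against 53.9 ± 1.20 CPM (WT; SD, n = 4), so it fell by 0.69 on the log2 scale (edgeR adjusted p = 1.5e-05). Atf4, the effector of the integrated stress response, fell by 0.42 and Maff, a small MAF gene, by 0.40 on the log2 scale. The 4 KO libraries lay below all WT libraries in each of these 3 genes. Batf2 rose by 0.36 (edgeR adjusted p = 0.0447), a call that ended whenever any 1 library was left out, and it was named after its value was seen. Batf and Batf3 had 0 counts throughout.

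Of the other growth-factor induced early genes 12 of 33 tested fell and none rose by the edgeR test. Over all tested genes 8.26% were lower and 7.63% higher. In this list 16 genes had an unadjusted p under 0.05 by edgeR, a share not computed over all genes. DESeq2 also called 12 of the list lower and 0 higher. When 1 library was left out 7 to 11 fell, with 7 without KO replicate 8, 8 without KO replicate 7 and 8 without WT replicate 16, and 2 rose without WT replicate 15. The median log2 fold change of this list was -0.11. Gadd45b (-0.45, edgeR adjusted p = 1.1e-04) and Gadd45a (-0.31, 0.00412), stress genes that act on the cell cycle and p38 signalling, fell, as did Ccn1, a matricellular protein gene, by 0.53 (edgeR adjusted p = 0.00493). Within the EGR family Egr1 stood alone: Egr2 had at most 12 counts in a library, Egr4 at most 2 and Egr3 none. The EGR corepressor genes Nab1 and Nab2 were not called (edgeR adjusted p = 0.946 and 0.469).

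None of 24 tested genes of the mitogen-activated protein kinase cascades and none of 7 tested genes of serum response factor and its cofactors passed the edgeR test. At an unadjusted p under 0.05 there were 5 and 0, and DESeq2 called 0 and 0. The share of all genes at that unadjusted p was not computed. Among the kinase genes 1 was called in each direction without WT replicate 15. After the GC and length smooth 4 rose and 1 fell, beside 14% higher and 13.5% lower of all genes tested there. Mapk3, which encodes ERK1, had 544 ± 9.89 (KO) and 527 ± 29.5 CPM (WT), and Srf 33.1 ± 0.984 and 35.5 ± 1.19 CPM (SD, n = 4). Rps6ka1, a kinase below ERK, and Fhl2, a cofactor, differed by 0.0094 and -0.048 on the log2 scale. Kinase activity is not measured by RNA. Of 19 tested genes known as AP-1 targets in epithelium 4 rose and 1 fell (7.63% and 8.26% of all tested genes). The median log2 fold change of the 19 was -0.0049. Among those that rose were Ccnd1 (0.18), the cyclin D1 gene, Il1rn (0.19) and Itgb4 (0.25), and Krt7 (-0.14) fell. The call of Krt7, named after its value was seen, ended without any 1 of 6 libraries.

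Heat shock genes are also known to rise with handling. Of 10 tested 1 fell, Hspa1b, with 29.9 ± 4.80 (KO) against 38.5 ± 5.46 CPM (WT; SD, n = 4; log2 fold change -0.36, edgeR adjusted p = 0.0406). That call ended without any 1 of 5 libraries (KO replicates 6, 7 and 8, WT replicates 13 and 16), and after the GC and length smooth 3 of the list fell. Of all genes tested 8.26% were lower, and 13.5% after the smooth. The list summed to 2671 to 2810 (KO) and 2802 to 2957 CPM (WT). Hspa1b and Hspa1a were lowest in KO replicate 7 and highest in WT replicate 16, as were Jun, Junb and Jund. Over the 8 libraries, with genotype means removed, their correlation with the member mean was 0.18 and 0.24. Over the 10 heat shock genes it ran from -0.62 (Hsph1) to 0.65 (Bag3), below 0 for 6. The part of handling in the member differences was not tested.

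The 5 non-member genes whose within-genotype pattern was most like the mean of the members, among 9848 candidates with at least 5 CPM, were Plekhg3 (r = 0.97), Taf1c (0.96), Nme4 (0.96), Sf3a1 (0.95) and Spef1 (0.95). With 8 libraries, so many candidates and a member mean on which Fosb and Fosl1 weigh most, such values are a description. Of these Plekhg3 also fell between genotypes (log2 fold change -0.25, edgeR adjusted p = 9.0e-04) and the other 4 were not called.

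Library totals lay between 37182098 and 49256171 counts. Epithelial markers ranged widely, from Muc2 at 5.08 to 8.13 CPM and Lgr5 at 27.3 to 44.0 CPM up to Krt8 at 3226 to 3742 CPM. Epcam stood at 1936 to 2127 CPM. Of 12 stromal, endothelial and immune markers Col1a2 and Cd3e were at 0 in every library, Ptprc reached at most 0.194 CPM and Col1a1 0.206 CPM. Csf1r and Acta2 passed the filter on low counts, as did Cd68. Csf1r stood at 0.452 to 0.851 CPM, and Acta2 reached 0.383 CPM. The endothelial genes Cdh5 and Pecam1 stood at 0.619 and 0.412 CPM in KO replicate 6, the KO library with the highest member level, and at 0 in the other KO libraries; their part in that level was not tested. The sum of these 12 was 29.1 to 35.7 (KO) and 31.6 to 43.7 CPM (WT), nearly all of it Cd68 at 27.7 to 42.7 CPM, which fell in KO (edgeR adjusted p = 0.0399, lost on leaving out any of KO replicates 5, 7, 8 or WT replicates 13, 14, 16). Of 12 epithelial markers 4 rose and 1 fell (7.63% and 8.26% of all tested genes). The surface genes Car1 and Krt20 rose (log2 fold changes 0.96 and 0.76) and the stem cell gene Lgr5 fell (-0.49). Their part in the member differences was not tested, and in bulk RNA fewer cells of a type and less RNA per cell cannot be told apart.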

How the data were processed

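The 8 organoid RNA-seq libraries share 1 table. Its deposited counts are raw read counts by gene. Per the submitters' processing notes the authors used HTSeq, Bowtie2, TopHat and TopHat2 and the genome GRCm38, with no version or role given. Per the labels' protocols, stranded mRNA libraries were made from 1 µg RNA with an integrity number above 7.0. FPKM, which the authors scaled for length and depth, served for levels between genes. TPM as deposited by the authors was used for no result. Limits from a count of 0 cover counting error only, whereas the SE and 95% intervals of fold changes also hold the spread between libraries.

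After filterByExpr and TMM scaling, counts entered a quasi-likelihood test (edgeR 4.0.16, R 4.3.3), two-sided, with Benjamini-Hochberg adjustment over all 14945 genes tested and a threshold of 0.05. The SE is the size of the log2 fold change over the square root of F. Correlations used log2 CPM (prior count 2) with genotype means removed. Pairs of libraries of 1 genotype had chi-square values of 4.94 to 24.9 times their degrees of freedom, so none was a duplicate. DESeq2 1.42.0, limma-voom (limma 3.58.1), other scalings and filters, and leaving out each library were alternatives. The steps were tested on simulated data. The members and lists were chosen with earlier results of these data known. Of each other list the text names up to 3 genes past 0.05, taken by lowest adjusted p, or, where none passed, the 2 of highest FPKM, and the 5 genes most like the member mean; others are named as called members of a list or as marker checks, after their values were seen. Cyr61, Ctgf, Mkl1 and Mkl2 of the lists were matched by RefSeq synonyms. GC content, length and exons came from GENCODE M21 (82.8% of tested genes matched by symbol). Descriptions used Python 3.11.15 with pandas 2.3.3 and numpy 2.4.6, and plots matplotlib 3.10.9. A called gene of the AP-1 target list is not reported here by name.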

Additional observations from a re-analysis of the deposited data

How the results depend on the processing

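No member changed direction under any alternative tried. Of 169 alternative values of the members' log2 fold changes, 144 kept their side of the threshold, 17 lost a call and 8 gained one. The number of members lower in KO, 3, was 5 with DESeq2, 5 after the smooth on GC content and length and 4 in the same genes without it. Over all genes DESeq2 called 1382 lower and 1336 higher. The member number was 2 with upper quartile scaling, library totals alone, no filter on low counts, at least 1 CPM in 4 libraries and limma-voom. In those settings 958 (no filter) to 1245 (at least 1 CPM) of all genes were lower. When 1 library was left out it ran from 1 member (without WT replicate 13, 808 of all genes lower) to 5 (without WT replicate 15, 1404 lower). The number higher, 1, was 0 with no filter on low counts and 0 to 1 when 1 library was left out. With at least 1 CPM required in 4 libraries Fosb was not tested. Over all genes, 1140 higher and 1234 lower became 1731 higher and 1674 lower after the smooth (1134 and 1251 in the same genes without it), and 696 to 1386 higher and 724 to 1404 lower when 1 library was left out, the lowest without KO replicate 8. The member level of KO minus WT was -0.22 on log2 CPM and -0.11 on log2(FPKM + 1), which shrinks low genes. The median correlation of 0.32 was 0.22 after the smooth, 0.22 on log2(FPKM + 1), and 0.28 to 0.42 when 1 library was left out. Leaving out a library turned the sign of uncalled genes, with ranges of -0.041 to 0.041 for Nab1, -0.021 to 0.042 for Rps6ka1, -0.083 to 0.081 for Taf1c and -0.0083 to 0.075 for Nme4. Where not stated, the cause was not tested. No paired analysis was possible because the genotypes share no library number. Depth limits Fosb (14 to 54 counts) and Fosl1 (55 to 96 counts) most.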

Other observations

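Of the summed FPKM of the 4 FOS genes, as the authors give it, Fosl2 held 61.4% ± 0.856 (KO) and 58.8% ± 1.24 (WT; SD, n = 4). The KO libraries (60.4% to 62.3%) all lay above the WT libraries (57.4% to 60.2%). Fos held 36.9% ± 0.610 and 38.8% ± 1.67, and Fosl1 and Fosb the small remainder. Of the summed FPKM of the 3 JUN genes, Junb held 46.1% ± 0.641 in KO and 44.5% ± 1.24 in WT, Jund 43.2% ± 0.800 and 44.1% ± 1.70, and Jun 10.7% ± 0.552 and 11.5% ± 0.506. Junb and Jund together thus made up most of the JUN transcripts in both genotypes. The summed FPKM of the JUN genes was 198 ± 7.53 in KO and 221 ± 11.8 in WT, with no overlap, and that of the FOS genes 47.6 ± 1.11 and 48.8 ± 1.09, with overlap. These sums were not tested. The separation of the JUN sum depends on the scale. In CPM, Junb was 203 in KO replicate 6 and 199 in WT replicate 15, and Jund 303 and 296.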
